A study of Homo sapiens with 6 samples.

Results

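The HSP70 and HSP110 chaperones described here are 10 genes, HSPA1B, HSPA6, HSPA8, HSPA1L, HSPA2, HSPA14, HSPA9, HSPA4, HSPA4L and HSPH1. These genes were chosen by name and by family, but with earlier results of these data known. They were read by 37 of the 44988 probe sets that name exactly 1 gene symbol, and so make up 10 of 18132 genes measured in that way. Expression was measured on 6 Affymetrix arrays. The labels give the cells as HCT-116, an established line from a human colorectal carcinoma, and describe it as having high Aurora-A and PLK-1. In the DMSO group 3 samples received the solvent, and in the AAPK group 3 samples received the compound coded AAPK, which the series title presents as acting on both Aurora-A and PLK-1, a pair of kinases that drive mitosis. The treatment note, the same for all 6 samples, gives 10 µM of drug for 48 h, read here as the dose and time of AAPK; all cells grew in RPMI medium with serum. Whether the 3 samples of each group were grown separately is not recorded, so each p-value reflects sample-to-sample spread that may be only technical.

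HSP70 proteins bind exposed hydrophobic stretches of unfolded proteins and release them in a cycle driven by ATP. J-domain proteins (HSP40s) deliver the client and trigger ATP hydrolysis, and nucleotide exchange factors, the HSP110 proteins among them, swap ADP for ATP and free the client. Human cells hold stress-inducible, constitutive, testis-enriched and mitochondrial forms. The inducible ones are classic targets of the heat shock factor HSF1, which binds inverted repeats of the letters GAA, called heat shock elements, in their promoters.

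Because HSF1 binds those elements, the 120 bases before the annotated start are shown for 3 genes that hold an exact match and for 2 whose change is described below and that hold none. They are from RefSeq, build GRCh38.p14, 5′ to 3′ on the strand of the gene, with matches in capitals.
HSPA1B, chr6:31827618-31827737, plus strand: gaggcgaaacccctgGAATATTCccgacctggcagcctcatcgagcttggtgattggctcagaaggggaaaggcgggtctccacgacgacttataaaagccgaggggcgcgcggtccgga
HSPA8, chr11:123062137-123062256, minus strand: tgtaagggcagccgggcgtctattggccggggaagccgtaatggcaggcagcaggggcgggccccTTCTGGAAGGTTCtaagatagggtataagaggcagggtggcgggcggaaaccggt
HSPA6, chr1:161524420-161524539, plus strand: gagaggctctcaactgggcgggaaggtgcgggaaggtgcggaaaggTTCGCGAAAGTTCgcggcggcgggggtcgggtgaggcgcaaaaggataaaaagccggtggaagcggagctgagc
HSPH1, chr13:31162389-31162508, minus strand: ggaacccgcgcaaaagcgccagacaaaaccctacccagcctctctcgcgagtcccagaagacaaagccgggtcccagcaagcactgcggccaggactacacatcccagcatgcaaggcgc
HSPA9, chr5:138575402-138575521, minus strand: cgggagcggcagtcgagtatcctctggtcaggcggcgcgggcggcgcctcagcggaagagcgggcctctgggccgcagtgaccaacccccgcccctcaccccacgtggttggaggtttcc

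The 250 bases before each start were searched on both strands for the 2-unit forms GAANNTTC and TTCNNGAA and for the 3-unit forms, which are GAANNTTC continued by NNGAA and TTCNNGAA continued by NNTTC, so that every 3-unit match contains a pair of overlapping 2-unit matches. Over 35114 starts in the RefSeq table, 11.6% held a 2-unit form and 0.441% a 3-unit form. Sequences were found for 9 of the 10 genes, with 11 starts; there was none for HSPA14. HSPA8 held 2 separate 3-unit matches, the one shown, 55 to 43 bases before the start, and GAAAGTTCCAGAA, 230 to 218 bases before it. RefSeq places the upstream boundary of the HSPA8 gene 326 bases before this start, so the window lies inside the annotated gene. The HSPA2 start likewise lies 4836 bases inside its gene, and HSPA4L starts lie 526 and 1727 bases inside theirs. HSPA6 held 1 3-unit match and a further 2-unit match, GAACCTTC, 180 to 173 bases before the start. HSPA1B and HSPA1L each held the 2-unit letters GAATATTC, and 1 of the 3 HSPA4L starts held TTCTCGAA. No exact match stood in these windows for HSPH1, HSPA4, HSPA9 or HSPA2, which says only that these letters are not in that stretch.

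Of the 10 genes, 6 rose with AAPK, 1 fell and 3 did not pass the test, taking the brightest probe set of each gene. In the same limma fit 15.4% of all genes passed, 8.11% higher and 7.26% lower. The groups did not overlap for 7 of the 10, as for 31.9% of all genes. The median log2 change was 0.34 for the 10 genes and -0.02 for all genes. By probe set, 24 of the 37 rose, 5 fell and 8 did not pass, against 7.13% of all probe sets higher and 5.82% lower (12.9% in all). By the brightest probe set, the inducible HSPA1B and the constitutive HSPA8 had the largest and second largest rises of the 1471 genes called higher. HSPH1 ranked 6 and HSPA4L 33, while HSPA4 ranked 97 and HSPA14 1146. The order of HSPA8 and HSPH1 depended on this choice of probe set, as described below. Signals are log2 values, taken here as normalised between arrays by the authors, so each change is read as relative to the bulk of genes. In a whole culture, a change in every cell and a change in the share of cells in some state cannot be told apart.

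**Figure D1:**
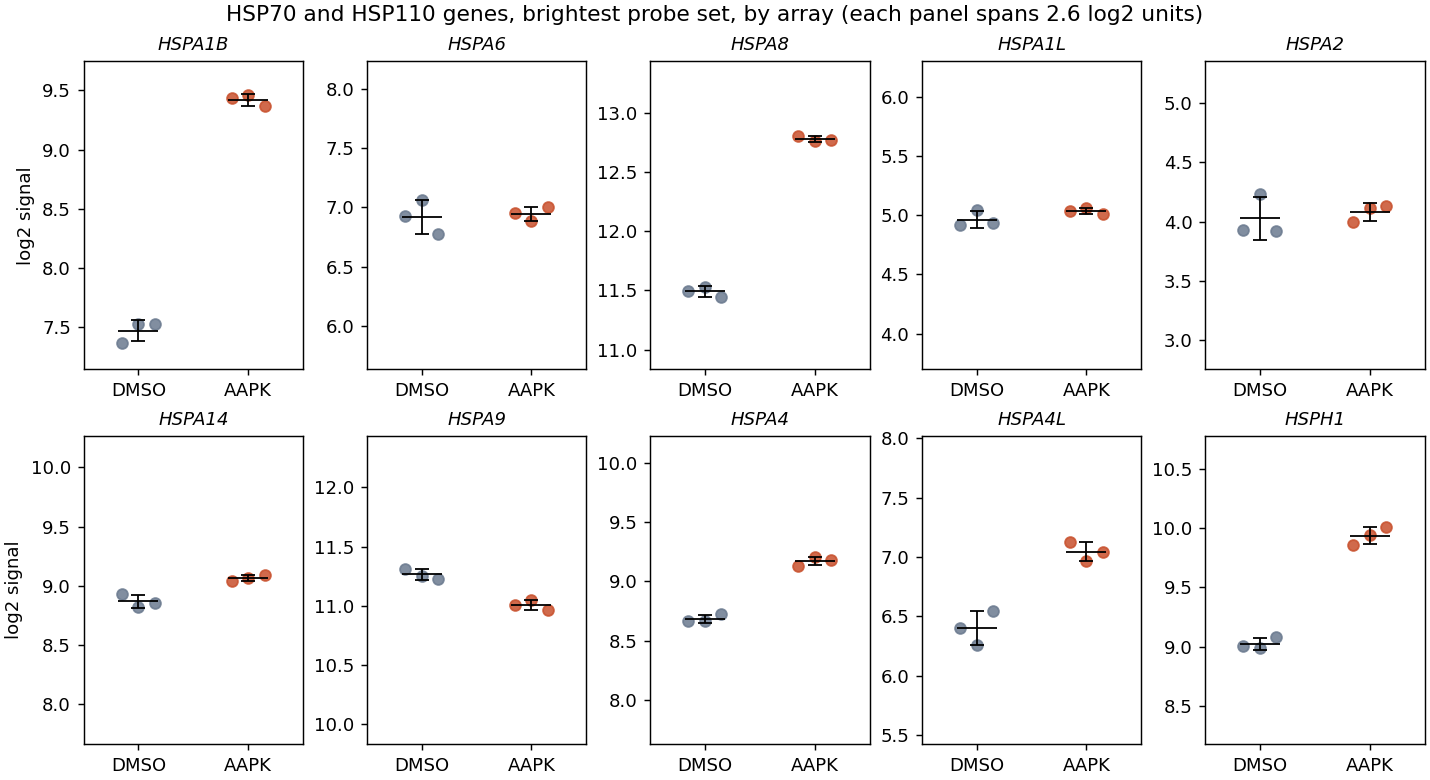
Log2 signal of the brightest probe set of each gene on the 3 DMSO and 3 AAPK arrays, with points for arrays and bars for the mean and SD; each panel spans the same 2.6 log2 units but is placed at its own level. HSPA1B and HSPA8 show the widest gaps, HSPA9 is the single gene with AAPK below DMSO on all arrays, and HSPA6, HSPA1L and HSPA2 overlap.

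Of the inducible HSP70s, HSPA1B rose and HSPA6 did not pass the test. HSPA1B, which encodes the major stress-induced cytosolic HSP70, read 7.37, 7.53 and 7.53 log2 units in DMSO and 9.43, 9.46 and 9.36 in AAPK. All AAPK arrays lay above all DMSO arrays, as they or the reverse did for 29.6% of all probe sets. The rise was 3.85-fold, or 1.94 ± 0.06 on the log2 scale (SE from limma, n = 3 per group; adjusted p = 6.67e-08 over all probe sets). The neighbouring gene HSPA1A is near-identical, and the probe set bears the Affymetrix suffix for probes that may cross-hybridise, so its signal may include that copy.

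HSPA6, a strictly inducible HSP70 (also called HSP70B′), had 1 probe set, with 6.926, 7.063 and 6.774 in DMSO and 6.951, 6.885 and 7.005 in AAPK. The groups overlapped and the change was 0.03 ± 0.07 (adjusted p = 0.879). Its upstream sequence above holds the exact 3-unit match, and that of HSPA1B holds an exact 2-unit match and no exact 3-unit match. Only exact letters were searched, and any link between these matches and the changes was not tested. The changes of HSPA1B and HSPA6 differed by 1.92 ± 0.12 (SE) within arrays. That difference had a two-sided exact permutation p = 0.1, the smallest that 3 arrays against 3 can give.

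HSPA8 encodes HSC70, the constitutive cytosolic HSP70 that folds new proteins, uncoats clathrin vesicles and serves chaperone-mediated autophagy. Its brightest probe set read 11.49, 11.53 and 11.45 in DMSO and 12.80, 12.76 and 12.77 in AAPK, with no overlap. It rose 2.44-fold (1.29 ± 0.05 SE, n = 3 per group, limma adjusted p = 2.28e-07). The rise on 4 other probe sets was slightly larger, from 1.39 to 1.53, so 5 of the 9 probe sets lay between 1.29 and 1.53.

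The remaining 4 HSPA8 probe sets gave smaller values. For 2 of them the platform's source accession is, in RefSeq, that of SNORD14D, a small nucleolar RNA of 87 bases that lies inside the HSPA8 gene. They read 5.21, 5.20 and 5.07 in DMSO and 5.24, 5.37 and 5.42 in AAPK, a change of 0.18 ± 0.06, and 6.06, 6.11 and 5.88 against 6.13, 6.27 and 6.23, a change of 0.19 ± 0.07. Neither passed (limma adjusted p = 0.0927 and 0.0947), although their groups did not overlap. The last 2 lay below the 25th percentile of all probe sets by signal, with changes of 0.31 ± 0.06 (adjusted p = 0.00489) and -0.05 ± 0.05 (adjusted p = 0.658). RefSeq lists 20 HSPA8 pseudogenes, and whether any of these probe sets reads one was not tested.

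**Figure D2:**
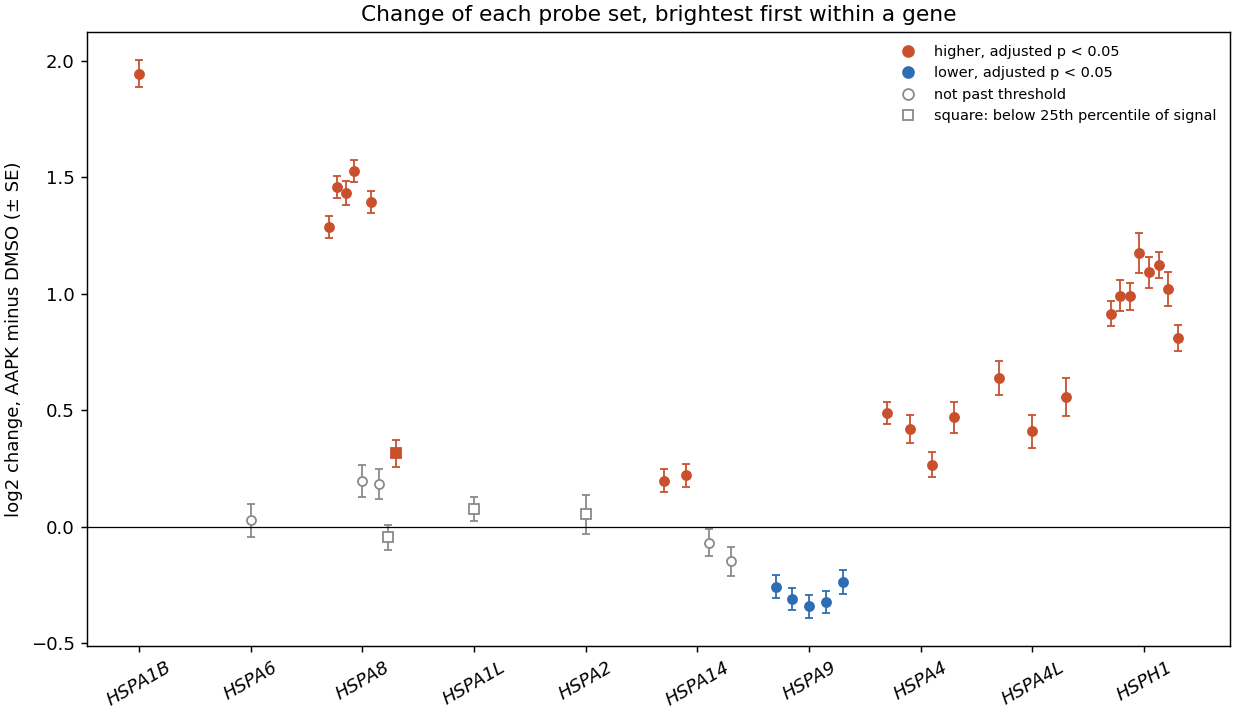
Log2 change with AAPK (AAPK minus DMSO, ± SE, 3 arrays per group) for all 37 probe sets, arranged by gene with the brightest first; filled symbols passed the threshold, and squares lie below the 25th percentile of signal. The 9 HSPA8 probe sets form an upper set of 5 and a lower set of 4, the 5 HSPA9 probe sets all lie below 0, and the 4 HSPA14 probe sets straddle it.

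HSPA1L and HSPA2 encode HSP70s found mainly in testis. HSPA1L read 4.91, 5.04 and 4.93 in DMSO and 5.03, 5.06 and 5.01 in AAPK (0.07 ± 0.05, limma adjusted p = 0.438). HSPA2 read 3.93, 4.24 and 3.92 in DMSO and 3.99, 4.12 and 4.13 in AAPK (0.05 ± 0.08, adjusted p = 0.769). Both had 1 probe set, both lay below the 25th percentile of signal, and both overlapped between groups, so a change in these transcripts may not be detectable here.

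HSPA14, a distant HSP70 that works at the ribosome with the J-domain protein DNAJC2, gave probe sets of both signs. The brightest rose from 8.93, 8.82 and 8.85 to 9.04, 9.07 and 9.09 (0.20 ± 0.05, limma adjusted p = 0.0239) and a second rose by 0.22 ± 0.05 (adjusted p = 0.0144). The other 2 were at -0.07 ± 0.06 and -0.15 ± 0.06 and did not pass (adjusted p = 0.528 and 0.175), with overlapping groups. In the fit over probe sets the brightest one lost its call in 5 of the 6 leave-outs (adjusted p from 0.0588 to 0.0775), all but that of DMSO replicate 1, and with quantile normalisation (0.15, adjusted p = 0.0775); the second lost it without AAPK replicate 2 (0.19, adjusted p = 0.0580). In the fit over genes (adjusted p = 0.0159) the call of HSPA14 did not hold when its probe sets were averaged (0.05, adjusted p = 0.479), with quantile normalisation (adjusted p = 0.0558) or without DMSO replicate 2 (adjusted p = 0.0529).

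HSPA9, the mitochondrial HSP70 called mortalin, which pulls imported proteins into the matrix and aids iron-sulfur cluster assembly, was the 1 gene that fell. Its brightest probe set read 11.31, 11.25 and 11.23 in DMSO and 11.01, 11.05 and 10.96 in AAPK, with every AAPK array below every DMSO array. The change was -0.26 ± 0.05 (n = 3 per group, limma adjusted p = 0.00639), which puts DMSO 1.20-fold higher. All 5 probe sets fell, by values between -0.34 and -0.24, and none overlapped between groups. Relative to HSPA8, the changes differed by 1.54 ± 0.04 (two-sided exact permutation p = 0.1, the smallest possible).

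HSP110 proteins are large relatives of HSP70 and act as its exchange factors. The HSP110 genes among the 10, HSPH1, HSPA4L and HSPA4, all rose on every probe set. HSPH1 (HSP105), the heat-inducible one, read 9.0, 8.99 and 9.08 in DMSO and 9.86, 9.94 and 10.00 in AAPK, a rise of 0.91 ± 0.05 or 1.88-fold (limma adjusted p = 5.69e-06). Its 8 probe sets rose by 0.81 to 1.17, with a median of 1.01. No HSPH1 probe set overlapped between groups.

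HSPA4L (APG-1) read 6.40, 6.26 and 6.55 in DMSO and 7.12, 6.96 and 7.04 in AAPK, a rise of 0.64 ± 0.07 (limma adjusted p = 3.80e-04), and its 3 probe sets rose by 0.41 to 0.64. HSPA4 (APG-2), broadly expressed, read 8.67, 8.66 and 8.73 in DMSO and 9.13, 9.20 and 9.18 in AAPK, a rise of 0.49 ± 0.05 (adjusted p = 1.40e-04), and its 4 probe sets rose by 0.27 to 0.49. None of these probe sets overlapped between groups.

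Ordered by the change of the brightest probe set, the called genes ran from HSPA1B through HSPA8, HSPH1, HSPA4L, HSPA4 and HSPA14 to HSPA9. In all, 6 pairs chosen by role were compared within arrays. HSPA1B rose more than HSPA8 by 0.66 ± 0.07 (SE), HSPH1 more than HSPA4 by 0.43 ± 0.03 and more than HSPA4L by 0.28 ± 0.10, and HSPA8 more than HSPH1 by 0.37 ± 0.08. All 6 had two-sided exact permutation p = 0.1, also adjusted over the 6 pairs, which is the lowest value this design allows and does not pass the threshold. With the mean of all probe sets of a gene the HSPA8 to HSPH1 difference turned to -0.15. It was 0.41 when the 4 HSPA8 probe sets with the smallest changes, chosen after their values were seen, were left out of that mean, a step that had to raise it.

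Of the 66 measured genes on the lists of HSP70 partners, 21 rose (31.8%, against 8.11% of all genes) and 6 fell (9.09%, against 7.26%) in the limma fit over genes. The lower share was near that of all genes. The median change over these 66 was 0.05. The lower count was 3 without DMSO replicate 3, without AAPK replicate 1 or with the replicate number as a block.

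Of 16 class A and B J-domain proteins, 4 rose and 1 fell, with a median of 0.02. DNAJA1, a general partner of HSC70, rose by 0.92 ± 0.05 (adjusted p = 1.94e-06) and DNAJB4 by 0.48 ± 0.07, while DNAJB9, a J-domain protein of the endoplasmic reticulum, fell by 0.36. DNAJB1, the J-domain protein classically induced with HSPA1B, stood at -0.07 ± 0.05, which did not pass (adjusted p = 0.364); it is named because of its value. Of 6 class C partners, 2 rose and 0 fell: DNAJC2, the ribosome-bound partner of HSPA14, by 0.32 ± 0.06, and DNAJC7, a tetratricopeptide adaptor, by 0.14 ± 0.04 (adjusted p = 0.0480), a call that was lost whichever array was left out (adjusted p from 0.0785 to 0.153) and in the fit over probe sets.

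Of 9 nucleotide exchange factors, 4 rose and 3 fell. GRPEL2, an exchange factor of mitochondrial HSPA9, read 9.81, 9.69 and 9.84 in DMSO and 8.78, 8.75 and 8.80 in AAPK. It fell by 1.0 ± 0.05 on the log2 scale (adjusted p = 1.39e-06), and both its probe sets fell. Its paralog GRPEL1 rose by 0.32 ± 0.06 (adjusted p = 0.00694), as did both its probe sets. BAG3, an inducible exchange factor that routes clients to autophagy, rose by 0.42 ± 0.05. The fallen others, named for their count, were BAG4 at -0.20 and BAG5 at -0.19 (adjusted p = 0.0181 and 0.0294). The BAG5 call was lost in every leave-out but that of AAPK replicate 3 (adjusted p from 0.0709 to 0.119), and the BAG4 call without DMSO replicate 3, AAPK replicate 1 or AAPK replicate 3 (0.0504 to 0.0672). Without DMSO replicate 3 or without AAPK replicate 1 a single member of this list was called lower, and without DMSO replicate 1 2 were called higher.

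Of 12 measured HSP90 and bridging genes, 6 rose and 1 fell, with a median of 0.15. STIP1 (HOP), which hands clients from HSP70 to HSP90, rose by 0.79 ± 0.06 (adjusted p = 1.69e-05), the HSP90 co-chaperone CHORDC1 by 0.62 ± 0.05 and the inducible HSP90 gene HSP90AA1 by 0.47 ± 0.05. The gene that fell, named for its count, was FKBP5, at -0.22 (adjusted p = 0.0376), and the list had 0 lower calls without DMSO replicate 1, DMSO replicate 3, AAPK replicate 1 or AAPK replicate 3; the FKBP5 call was also lost with median centring (adjusted p = 0.0616) and when its probe sets were averaged (0.0568).

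Of 10 mitochondrial partners and chaperonin genes, 3 rose and 1 fell. GRPEL2 and GRPEL1 are on this list too, and HSPE1, the mitochondrial HSP10, rose by 0.58 ± 0.05 (adjusted p = 4.66e-05). HSPD1, the HSP60 that works with HSPE1, stood at 0.07 ± 0.04, which did not pass (adjusted p = 0.364); it too is named because of its value.

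Of 7 measured small heat shock proteins, 1 rose, HSPB8, a partner of BAG3, by 0.64 ± 0.05 (adjusted p = 1.42e-05). Without AAPK replicate 3 the count was 2. Of 4 measured genes on the heat shock factor list, 1 rose, HSBP1, by 0.33 ± 0.06. It binds HSF1 and is not itself a heat shock factor, and none of the measured factors on the list passed. HSF1, named for its role after its value was seen, was at -0.08 ± 0.05 (adjusted p = 0.370). Of 5 other measured HSP70 family genes, 1 rose and 1 fell. HSPA5 (BiP), the HSP70 of the endoplasmic reticulum, rose by 0.24 ± 0.05 (adjusted p = 0.00537). HYOU1, a relative of the HSP110 genes and named after its value was seen, was at 0.03 ± 0.04 (limma adjusted p = 0.717). None of its 9 probe sets passed, with changes from -0.05 to 0.08. HSPA13, a microsomal HSP70, was at -0.68 ± 0.06 on its brightest probe set, but 2 of its 4 probe sets rose and 2 fell, and their mean was -0.12 (adjusted p = 0.204).

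**Figure D3:**
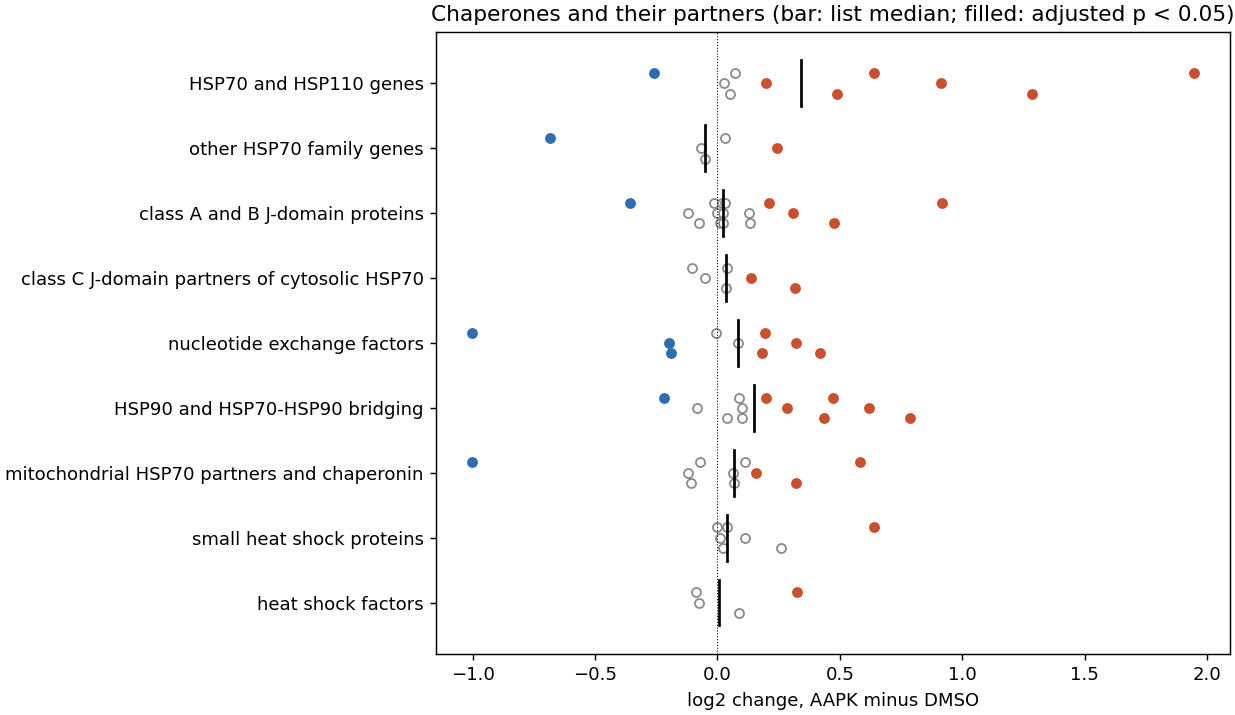
Log2 change with AAPK for each gene (brightest probe set) in the HSP70 and HSP110 group and 8 partner lists, with vertical bars for list medians and filled points past the threshold. HSPA1B and HSPA8 lie to the right of every partner gene, and GRPEL2 at -1.0 lies farthest to the left.

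Genes nearest in pattern, among those outside the 10, were taken by the root mean square difference over the 6 arrays, after each gene's DMSO mean was subtracted. This distance depends mostly on the size of the change. HSPA1B and HSPA8 had the largest rises, so their neighbours were bound to be genes with the next largest rises. Nearest to HSPH1 were DNAJA1 at 0.03, RBIS at 0.05 and DLGAP5 at 0.05 log2 units. Nearest to HSPA8 were CKS2 at 0.21, DNAJA1 at 0.27 and DLGAP5 at 0.28, and the same 3 were nearest to HSPA1B, at 0.67, 0.73 and 0.73. Among the 10 genes themselves, HSPA8 lay nearer to HSPA1B, at 0.47, and HSPH1 lay 0.274 from HSPA8, between DNAJA1 and DLGAP5.

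Array medians were 6.46 to 6.50 log2 units, and the arrays correlated over all probe sets at 0.9976 to 0.9983 if of one group and at 0.9942 to 0.9954 if not. Of 6 ribosomal RNA control probe sets, 3 differed between the groups (limma adjusted p from 2.52e-04 to 0.00228), with changes of 0.56, 0.51 and -0.41; their part in these results was not tested. The 3′ to 5′ signal differences of the GAPDH and ACTB controls overlapped between the groups (exact permutation, two-sided, p = 0.6 and 1). Of 6 colon epithelial markers, the keratins KRT8 and KRT18 were above the median gene, but EPCAM, CDH1, KRT19 and VIL1 lay below the 25th percentile of genes on these arrays, although an epithelial line is known for expressing EPCAM and CDH1. The identity of the cells rests on the labels and was not tested. Of the markers of other cell types, 0 of 5 fibroblast, 1 of 3 blood and 2 of 3 endothelial genes lay above the median gene. None of these 11 passed (limma, with 2 at an unadjusted p under 0.05). Of the epithelial markers, 1 passed and 5 did not. KRT8 was higher in AAPK by 0.17 ± 0.05 (limma adjusted p = 0.0402 over genes), and 1 of its 8 probe sets passed in the fit over probe sets. The mean log2 level of each marker list differed by no more than 0.19 between any DMSO and AAPK arrays.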

How the data were processed

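The deposited table holds log2 signals for 49395 probe sets on 6 arrays, with the scale read from the values (2.83 to 14.25). That the authors had normalised between arrays was likewise inferred, from the near-equal medians. Per the labels, RNA was extracted with Trizol and biotin-labelled by in vitro transcription; for background correction, normalisation and summary, the method is not given in the sources used here. Genes were named from the platform's annotation table: 102 probe sets were controls, 44988 named 1 symbol, 1832 several and 2473 none. Differences (AAPK minus DMSO, log2) were tested in R 4.3.3 by lmFit and eBayes of limma 3.58.1 (two-sided, Benjamini-Hochberg, threshold 0.05), once over the 44988 probe sets, used for the values of the 10 genes, and once over 18132 genes by their brightest probe set, used for counts of genes and for partners. Both fits were checked on simulated arrays. With 3 arrays per group, their number limits precision. Pairs of genes were compared by exact permutation of within-array differences. The genes and lists were chosen with earlier results of these data known. Named were all 10 genes with every probe set and the 3 largest called changes of each of 8 partner lists. Also named were the 3 genes outside the 10 nearest in pattern to HSPA1B, HSPA8 and HSPH1. DNAJB1, HSPD1, BAG4, BAG5, FKBP5, HSF1 and HYOU1, chosen after their values were seen, are named outside this rule. Promoter windows came from RefSeq (GRCh38.p14). Alternatives were quantile normalisation, median centring, a filter at the 25th percentile of signal, an intensity trend, array weights, the replicate number as a block, other ways to pick probe sets, and leaving out each array.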

Additional observations from a re-analysis of the deposited data

Results flagged for a closer look

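Probe sets that list 2 symbols were left out of the comparison, and 5 of them list HSPA1B or HSPA6 with a second gene. The 4 that list HSPA1B were higher in AAPK than in the DMSO controls, by 2.28, 2.26, 2.24 and 1.77 on the log2 scale (limma adjusted p from 7.08e-09 to 8.41e-08 over 49293 probe sets, controls left out). The one with a change of 2.28 read 8.53, 8.57 and 8.56 in DMSO and 10.85, 10.78 and 10.87 in AAPK, and none of the 4 overlapped between groups. They cannot be assigned to 1 of their 2 genes. The probe set that lists HSPA6 with a second gene read 0.06 ± 0.06 higher, short of the threshold (adjusted p = 0.653). Dixon's outlier test was not used, since each group has 3 arrays.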

How the results depend on the processing

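HSPA1B, HSPA8, HSPA9, HSPA4, HSPA4L and HSPH1 kept their direction and call, on the brightest probe set or its replacement, under all 14 alternatives run; HSPA8 ranged from 0.86 to 1.53, its lowest value being the mean of its 9 probe sets. Changes near 0 turned sign: without 1 array HSPA6 ran from -0.0474 (without DMSO replicate 3; -0.0028 without AAPK replicate 3) to 0.0973 and HSPA2 from -0.0011 (without DMSO replicate 3) to 0.158, none of them called. The HSPA8 to HSPH1 difference turned to -0.15 when probe sets were averaged by gene; leaving out 4 HSPA8 probe sets, chosen after seeing the data, gave 0.41, a step that had to raise the HSPA8 mean. Without 1 array, genes called ran from 1921 to 2450, 1004 to 1308 higher and 891 to 1142 lower, and probe sets called from 3970 to 5340; the partner genes called lower ran from 3 to 5. With the replicate number as a block, partner genes called lower came to 3. The calls on DNAJC7, BAG4, BAG5 and FKBP5 were lost (limma adjusted p = 0.116, 0.0519, 0.0575 and 0.0854). So was the call on the brightest HSPA14 probe set (0.20, adjusted p = 0.0635). The block ended no other call on a named chaperone, partner or gene nearest in pattern, or on a probe set of the 10 genes. Whether the KRT8 call holds under the block was not tested. Deviations of same-numbered arrays correlated at 0.02, -0.20 and -0.03, which shows no pairing by number. With 3 arrays per group these values cannot exclude a pairing. Of the HSPA9 probe sets, 1 lost its call without AAPK replicate 1 (-0.21, adjusted p = 0.0591). No detection calls were used, so signal over background is unknown for dim probe sets.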
